A study of Mus musculus with 2 samples.

Results

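The 10 genes examined were Lyz1, Lyz2, Ltf, Camp, Ngp, Lcn2, Chil1, Chil3, Wfdc2 and Slpi, a set of secreted lysozyme, chitinase-like and antimicrobial products. They were taken by symbol from the 32285 genes of the count matrices, and all 10 were found there. Lysozymes cut the peptidoglycan of bacterial cell walls, lactoferrin (Ltf) and lipocalin 2 (Lcn2) withhold iron from microbes, and the cathelicidin Camp and its relative Ngp are stored in the granules of maturing neutrophils. Chil1 and Chil3 belong to the chitinase family but bind chitin-like sugars without cutting them, and Wfdc2 and Slpi carry whey acidic protein domains, with Slpi blocking serine proteases such as neutrophil elastase. In the lung such proteins are made by alveolar type 2 (AT2) cells, by airway secretory cells and by resident and recruited phagocytes, so a level in the whole organ depends on which of these cells are present.

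The libraries were 10x 3' single-cell RNA-Seq of mouse lung, 1 for the genotype labelled Cebpa FF, with floxed Cebpa alleles and no deletion, and 1 for the genotype labelled Cebpa KO, in which a tamoxifen-induced Cre driven by the Sftpc promoter deletes Cebpa in AT2 cells. Both genotypes carried the floxed alleles and both received tamoxifen, 75 mg/kg on each of 5 days with a later weekly round for analyses beyond 3 months, and the lungs were taken 26 weeks after the first injection. The mice were on a mixed background, were age matched and were 3 months old unless stated otherwise, and the study describes 3 mice per genotype. The barcodes do not tell mice apart, so each genotype is 1 sample, no test between genotypes was made, and every interval below covers counting error only.

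The Cebpa FF library held 69200420 UMIs (unique molecular identifiers, each 1 captured RNA molecule) and the Cebpa KO library 64697396, and 11487 and 13238 cells were kept, with medians of 4835 and 2607 UMIs per cell. The libraries shared 45 cell barcodes. Cells were assigned to a type by raw counts of marker genes, none of which is among the 10 genes, and a cell that passed the gates of several types was left out, which was 0.714% of Cebpa FF and 4.28% of Cebpa KO cells. A further 17.3% and 22.5% passed no gate. The gates held 474 and 314 AT2 cells, 12 and 10 airway secretory cells, 205 and 167 multiciliated cells, 20 and 90 interstitial macrophages, 3 and 432 alveolar macrophages, 3 and 475 neutrophils and 6896 and 6057 endothelial cells in Cebpa FF and Cebpa KO. Ratios between the libraries were made only where both held at least 10 cells, so neutrophils and alveolar macrophages are described in Cebpa KO with the Cebpa FF counts beside them. Levels are CPM, the UMIs of a gene per 1000000 UMIs of all cells of a gate, with exact Poisson 95% intervals, and because each molecule is counted once at its 3' end the counts carry no length term. In AT2 cells Cebpa itself stood at 155 CPM (147 to 163) in Cebpa FF and 119 (104 to 137) in Cebpa KO. Whether these 3' reads lie in the deleted part of the gene was not tested, so the level does not check the deletion.

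The lysozyme genes lie side by side on chromosome 10, Lyz2 at chr10:117277331-117282321 and Lyz1 at chr10:117287797-117292868, both on the minus strand (GENCODE vM21, GRCm38). Their RefSeq promoters (build GRCm38.p6, 250 bases before to 50 after the start), at chr10:117292819-117293118 for Lyz1 and chr10:117282223-117282522 for Lyz2, are shown because the similar copies had very unequal counts. Capitals mark bases that differ or have no partner in the alignment of the pair, in which 249 of 302 columns (82.5%) were identical.
Lyz1: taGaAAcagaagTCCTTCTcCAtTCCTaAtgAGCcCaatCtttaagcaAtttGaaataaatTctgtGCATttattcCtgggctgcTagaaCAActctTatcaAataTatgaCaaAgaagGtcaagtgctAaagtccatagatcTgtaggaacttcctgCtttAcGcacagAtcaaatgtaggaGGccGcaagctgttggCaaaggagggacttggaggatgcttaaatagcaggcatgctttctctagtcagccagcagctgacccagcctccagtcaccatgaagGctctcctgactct
Lyz2: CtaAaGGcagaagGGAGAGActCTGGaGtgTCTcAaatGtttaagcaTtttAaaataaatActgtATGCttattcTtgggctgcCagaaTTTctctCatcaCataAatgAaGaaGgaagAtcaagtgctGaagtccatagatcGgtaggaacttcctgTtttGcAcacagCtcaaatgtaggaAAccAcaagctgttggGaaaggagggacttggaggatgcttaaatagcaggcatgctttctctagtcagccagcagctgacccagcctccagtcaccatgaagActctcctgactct
Of the 100 bases nearest the 3' end of the window 1 differed in each gene, against 35 of the first 100 in Lyz1 and 34 in Lyz2. The longest coding transcripts aligned over 1317 columns with 92% identity, and their last 300 bases with 93.8%, the stretch in which 3' reads fall. Reads from stretches that the copies share may be lost or miscounted. How many were was not tested, so Lyz1 counts are uncertain where Lyz2 is abundant.

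Because the deleted gene encodes a C/EBP factor, the promoters of all 10 genes were searched for 2 C/EBP-type 8-base patterns, TTGCNNAA and its reverse complement TTNNGCAA, which together cover both strands. At least 1 match was present in Lyz1, Ltf, Ngp, Lcn2 and Slpi, and none in the windows of Lyz2, Camp, Chil1, Chil3 and Wfdc2, against 12.2% of 27025 genes. The matches are shown in capitals with their flanks, since the feature was not used to choose the genes. The windows are chr10:117293040-117293107 on the minus strand for Lyz1, chr9:111019187-111019254 on the plus strand for Ltf, chr9:110419640-110419707 and chr9:110419767-110419834 on the plus strand for Ngp, chr2:32387918-32387985 on the minus strand for Lcn2 and chr2:164356711-164356757 on the minus strand for Slpi.
Lyz1: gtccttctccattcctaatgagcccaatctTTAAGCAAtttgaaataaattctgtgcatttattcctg
Ltf: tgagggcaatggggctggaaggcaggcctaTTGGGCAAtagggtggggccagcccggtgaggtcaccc
Ngp, first: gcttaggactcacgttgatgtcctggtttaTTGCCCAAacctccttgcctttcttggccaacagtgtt
Ngp, second: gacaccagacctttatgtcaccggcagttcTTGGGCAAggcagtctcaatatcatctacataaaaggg
Lcn2: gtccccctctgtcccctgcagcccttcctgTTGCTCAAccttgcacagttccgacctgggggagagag
Slpi: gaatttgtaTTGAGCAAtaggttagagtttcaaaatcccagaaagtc
The matches began 209 bases before the start in Lyz1, 75 in Ltf, 138 and 11 in Ngp, 216 in Lcn2 and 241 in Slpi. A match is a description of letters and not of binding.

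Each gene had a different set of source cells. The largest share of a gene's UMIs in Cebpa FF came from AT2 cells for Lyz1 (87.9%), Lyz2 (89.6%), Lcn2 (86.5%), Chil1 (93.7%) and Wfdc2 (68%). In Cebpa KO the AT2 share was 41% for Lyz1, 12.8% for Lyz2, 25.8% for Lcn2, 74.6% for Chil1 and 37.2% for Wfdc2. Alveolar macrophages then gave 30.6% of Lyz2 and 72.3% of Chil3, neutrophils 43.9% of Lcn2, 45% of Slpi and 75.8% of Ngp, and airway secretory cells 57.8% of Ltf and 29% of Wfdc2. The shares depend on which cells were loaded, for which the labels describe a sort and the study's methods whole-lung suspensions. The share of kept cells in the neutrophil gate was 0.0261% in Cebpa FF and 3.59% in Cebpa KO, a log2 ratio of 7.10 (5.55 to 9.38).

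**Figure D1:**
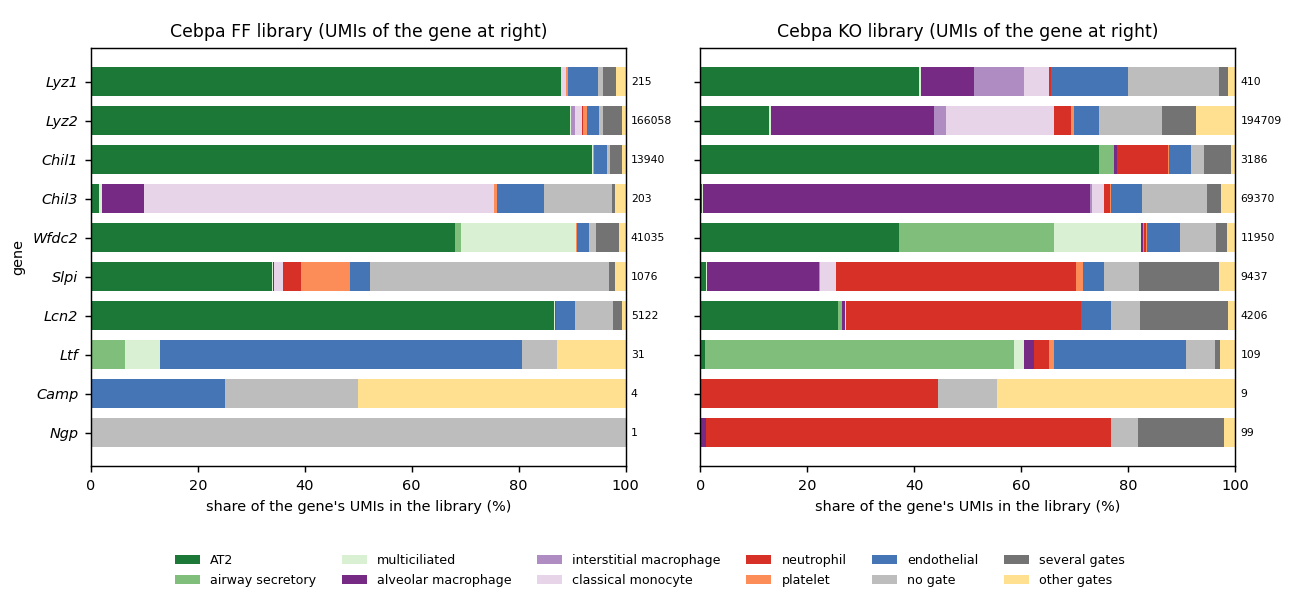
Share of each gene's UMIs (percent, horizontal axis) held by the cells of each gate, for the Cebpa FF library (left) and the Cebpa KO library (right), with the gene's total UMIs at the right of each bar. AT2 cells fill 89.6% of the Lyz2 bar in Cebpa FF and 12.8% in Cebpa KO, where alveolar macrophages, monocytes and ungated cells take most of the rest.

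In AT2 cells Lyz2 was by far the most abundant of the 10 genes, and Wfdc2 and Chil1 followed. Lyz2 stood at 16318 CPM (16235 to 16401) in Cebpa FF and 14752 (14569 to 14936) in Cebpa KO, a log2 ratio of -0.15 (-0.16 to -0.13). Wfdc2 stood at 3060 and 2628 CPM (log2 ratio -0.22, -0.27 to -0.17) and Chil1 at 1431 and 1405 (-0.03, -0.09 to 0.04). None of these 3 was past 2-fold. The AT2 gate required at least 5 of 11 AT2 markers, Sftpc among them, with at least 32 UMIs per 1000. Cebpa KO cells that had lost these markers would fall outside it, and how many there were was not tested. The ratios thus describe cells that kept the markers. Of the 7 members with at least 50 UMIs in AT2 cells, Lyz1 and Chil3 were more than 2-fold higher in Cebpa KO and 0 were lower, beside 6.94% of the 9850 genes tested past 2-fold, 6.23% higher and 0.711% lower. Chil3, with 3 UMIs in Cebpa FF, reached this minimum only through Cebpa KO. The median log2 ratio was 0.4 over the 7 members and 0.15 over all genes tested.

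The AT2 ratio of Lyz2 depended on how cells were weighted. AT2 cells had a median of 20516 UMIs in Cebpa FF and 1510 in Cebpa KO, and 433 and 83 cells had at least 3000. In the deeper cells the log2 ratio of Lyz2 was 0.00 (-0.02 to 0.02), whereas after thinning cells to 1000 UMIs, so that they counted equally, it was -0.70 (-0.77 to -0.64). Thinning left out 23 of 474 Cebpa FF and 63 of 314 Cebpa KO AT2 cells, which had fewer UMIs. Chil1 and Wfdc2 went the same way, at 0.11 and -0.11 in the deeper cells and -0.46 and -0.66 after thinning. The low depth of many Cebpa KO cells moved with this difference, and its part in it was not tested. Among AT2 cells with at least 10000 UMIs, thinned to 10000, the median Lyz2 count was 144 in 399 Cebpa FF cells and 147 in 51 Cebpa KO cells, with ranges of 0 to 837 and 0 to 568. Cells with no Lyz2 thus existed at this depth in both libraries.

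Lcn2 and Slpi, which neutrophils also make, were low to moderate in AT2 cells. Lcn2 stood at 486 CPM (472 to 500) in Cebpa FF and 641 (603 to 680) in Cebpa KO, a log2 ratio of 0.40 (0.30 to 0.50). Its counts were uneven: 2 Cebpa KO cells held 277 and 190 of the 1084 UMIs, and without the top cell of each library the ratio was 0.06 (-0.05 to 0.17). Slpi stood at 40 CPM (36 to 44.3) and 55.6 (44.9 to 68), a log2 ratio of 0.47 (0.13 to 0.80), at -0.03 (-0.47 to 0.39) among cells with at least 3000 UMIs, and past 2-fold, at 1.52 (0.53 to 2.56), after thinning to 1000 UMIs. Neutrophil markers in the same AT2 cells summed to 3.18 CPM in Cebpa FF, with 7 of 12 found, and 793 CPM in Cebpa KO, with 11 of 12 found, Ly6g at 0 in both and up to 69.7 UMIs per 1000 in 1 Cebpa KO cell. Their part in the Slpi and Lcn2 values was not tested. The cell with 277 Lcn2 UMIs was also rich in AT2 products, with 3975 of Sftpc (surfactant protein C), 568 of Lyz2 and 116 of Chil1, and 2 of S100a8.

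Lyz1 was carried by a few AT2 cells. It stood at 20.7 CPM (17.9 to 23.9) in Cebpa FF, where 55 of 474 cells had a UMI and the top cells held 71, 31 and 14 of 189 UMIs. In Cebpa KO it stood at 99.3 CPM (84.9 to 116), a log2 ratio of 2.26 (1.95 to 2.57), but 154 of the 168 UMIs (91.7%) lay in 1 cell and the next had 5. Without the top cell of each library the ratio turned to -0.62 (-1.54 to 0.18), so 1 cell set the direction. That cell had 30406 UMIs, among them 2935 of Sftpc and 401 of Lyz2, and none of C1qa, a macrophage complement gene. The top Cebpa FF cell had 3140 of Sftpc and 648 of Lyz2.

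Ltf, Camp and Ngp were near absent from AT2 cells. Ltf had 0 UMIs in Cebpa FF AT2 cells, which allows up to 0.329 CPM (3 counts), and 1 in Cebpa KO. Camp and Ngp had 0 in both, which allows up to 0.329 and 1.77 CPM. Of 20 listed neutrophil granule genes 7 had at least 50 UMIs in AT2 cells, and the 4 past 2-fold higher in Cebpa KO were S100a9 (0.987 and 394 CPM), S100a8, Chil3 and Cybb, where 6.23% of all genes tested were higher. These had 9, 5, 3 and 2 UMIs in Cebpa FF and reached the 50 UMI minimum only through Cebpa KO, so the count is partly set by that minimum. The 12 neutrophil markers, S100a8 and S100a9 among them, summed to 793 CPM in Cebpa KO AT2 cells and 366 CPM in endothelial cells of that library. Among host defence genes in AT2 cells, 10 of 17 listed had at least 50 UMIs and 2 were more than 2-fold higher in Cebpa KO, beside the same 6.23%. They were Lyz1, whose ratio 1 cell set, and Pigr, the receptor that carries IgA across epithelium, at 2.85 and 22.5 CPM. The collectins Sftpa1 (26960 and 23432 CPM) and Sftpd (4391 and 3858) had log2 ratios of -0.20 and -0.19, close to those of Lyz2 and Wfdc2. Sftpa1 is a marker of the AT2 gate, so its level there is partly set by the gate. Of 10 chitinase family genes 5 passed the count minimum, and Chia1, the acidic chitinase, stood at 243 and 160 CPM (log2 ratio -0.61, -0.79 to -0.42).

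**Figure D2:**
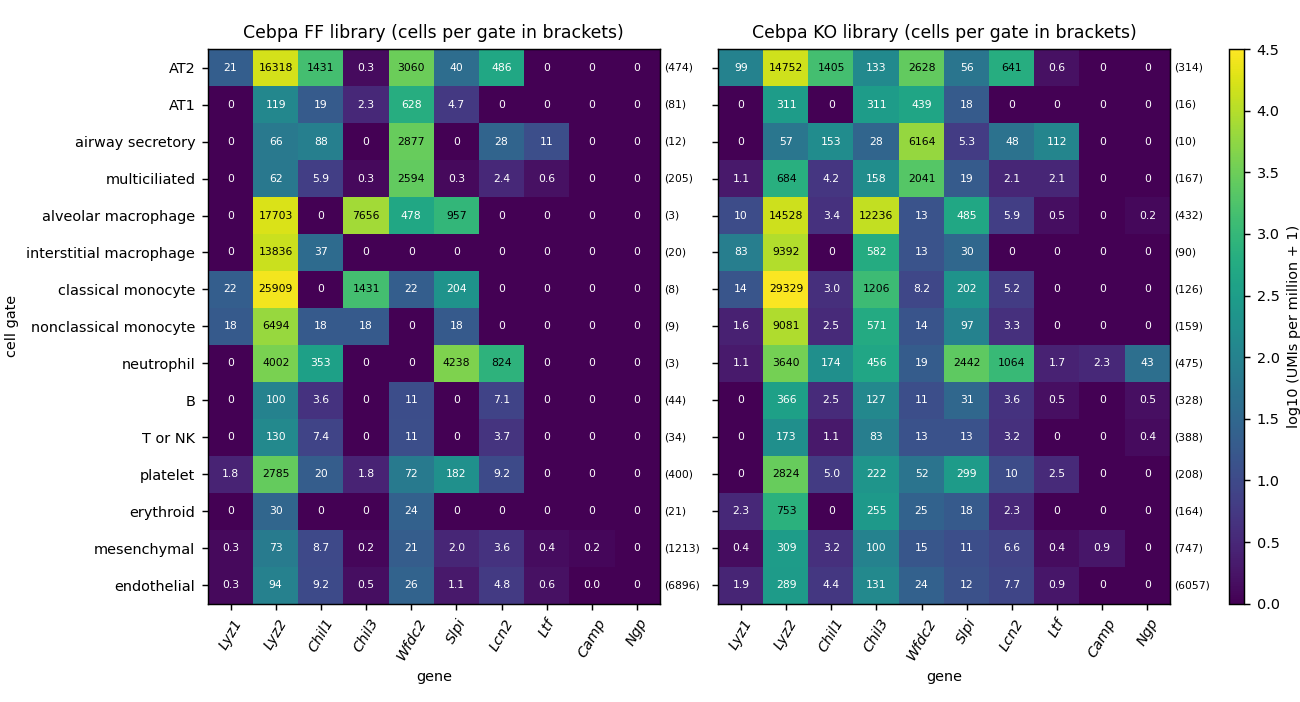
Level of each gene (columns) in each cell gate (rows), as log10 of CPM plus 1 in color, with the CPM printed in each field, for the Cebpa FF library (left) and the Cebpa KO library (right). Lyz2 is at 9392 CPM or more in the AT2, macrophage and classical monocyte gates of both libraries, Wfdc2 is high in epithelial gates, and Chil3 is at 28.5 CPM or more in every gate shown of Cebpa KO.

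Across deep AT2 cells, thinned to 10000 UMIs, Lcn2, Chil1 and Lyz2 counts went together and Wfdc2 did not. Spearman's rho of Lcn2 with Chil1 was 0.46 over 399 Cebpa FF cells and 0.61 over 51 Cebpa KO cells, and that of Chil1 with Lyz2 was 0.42 and 0.60. For Wfdc2 with Lyz2 it was 0.15 and -0.06. Cells of 1 library share its lysis and capture, so these are descriptions. The median thinned Wfdc2 count was 30 in Cebpa FF and 28 in Cebpa KO, and it was never below 6 and 9, so these deep AT2 cells all held Wfdc2 while some lacked Lyz2.

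Airway secretory cells, known for club cell and mucin products, had high Wfdc2, and in Cebpa KO they held 57.8% of the Ltf UMIs. In Cebpa FF they held 2 of 31 Ltf UMIs and endothelial cells 21. Wfdc2 stood at 2877 CPM (2635 to 3135) in the 12 Cebpa FF cells and 6164 (5960 to 6372) in the 10 Cebpa KO cells, a log2 ratio of 1.10 (0.97 to 1.23). The Cebpa KO level rested on few cells, with 1642, 971 and 262 of 3464 UMIs in the top 3, and the ratio was 0.92 (0.76 to 1.08) without the top cell of each library. With secretoglobin, hemoglobin and mitochondrial UMIs out of the total it was 0.72 (0.59 to 0.86), since Scgb1a1 alone, the club cell secretoglobin, took 630916 and 479528 CPM. Wfdc2 and Ltf made 2 of 3 tested members past 2-fold, in a gate where 30.1% of 866 genes were, 28.5% higher and 1.62% lower. Of these, Ltf reached the count minimum only through Cebpa KO. Median depth was 13596 UMIs in Cebpa FF and 51221 in Cebpa KO.

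Ltf was found with 2 UMIs in 1 Cebpa FF airway cell and 63 UMIs in 6 of 10 Cebpa KO airway cells (11 CPM, 1.34 to 39.9, against 112, 86.1 to 143). Of the 63, 33 and 21 lay in 2 cells, and the first was the Wfdc2-richest cell, with 160434 UMIs, which was also rich in Reg3g, a bactericidal lectin, and the mucin Muc5b. Within Cebpa KO, airway Ltf was 127-fold (79.9 to 208) above the endothelial level. Of 17 listed host defence genes 12 had at least 50 UMIs and 9 were more than 2-fold higher in Cebpa KO, beside 28.5% of all genes tested. They included Wfdc2, Ltf, Reg3g (11 and 1879 CPM), Bpifb1 (22.1 and 1566), Bpifa1 (215 and 1343) and Tff2 (11 and 609). The cell of 160434 UMIs held 937 of the 1056 Reg3g and 401 of the 447 Muc5b UMIs of this gate in Cebpa KO. Reg3g, Bpifb1, Bpifa1 and Muc5b belong to the markers of this gate. Reg3g, Bpifb1, Tff2, Muc5b and Ltf had 4 or fewer UMIs in Cebpa FF, and Bpifa1 had 39. Of the 9 only Wfdc2, with 521, had at least 50 UMIs there. The others reached the 50 UMI minimum only through Cebpa KO. The count of 9 is thus partly set by the gate and by that minimum. Chil1 in airway cells stood at 88.3 and 153 CPM (log2 ratio 0.79, 0.01 to 1.66). Lyz2 was at 66.3 and 56.9 CPM there and Lyz1 at 0 UMIs in both libraries.

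Wfdc2 was a general epithelial product. Multiciliated cells had 2594 CPM (2540 to 2649) in Cebpa FF and 2041 (1951 to 2134) in Cebpa KO, a log2 ratio of -0.35 (-0.42 to -0.27). AT1 cells, which line the gas exchange surface, had 628 (555 to 707) and 439 (281 to 654). Within Cebpa FF the AT2 level was 1.18-fold (1.15 to 1.21) that of multiciliated cells and 4.88-fold (4.33 to 5.52) that of AT1 cells. In Cebpa FF, 4 cells passed the AT2 and the airway gate together and had 21146 CPM of Lyz2 and 6014 of Wfdc2, and 0 did in Cebpa KO. In multiciliated cells Lyz2 (61.7 and 684 CPM) and Chil3 (0.295 and 158) made 2 of 3 tested members past 2-fold, beside 4.01% of 8795 genes, 3.01% higher and 1% lower, and in both genes the Cebpa KO endothelial cells also held UMIs, at 289 and 131 CPM. Chil3, with 1 UMI in Cebpa FF multiciliated cells and 150 in Cebpa KO, reached the count minimum only through Cebpa KO. The count of 2 is thus partly set by that minimum. Of the 650 Lyz2 UMIs in Cebpa KO multiciliated cells 81 lay in 1 cell. Multiciliated cells had a median of 16553 UMIs in Cebpa FF and 1856 in Cebpa KO. At least 3000 UMIs were held by 200 of 205 and 48 of 167 of these cells. The multiciliated ratios were not recomputed by depth, without top cells or with thinned cells. How far the Wfdc2, Lyz2 and Chil3 ratios in this gate depend on depth was thus not tested.

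**Figure D3:**
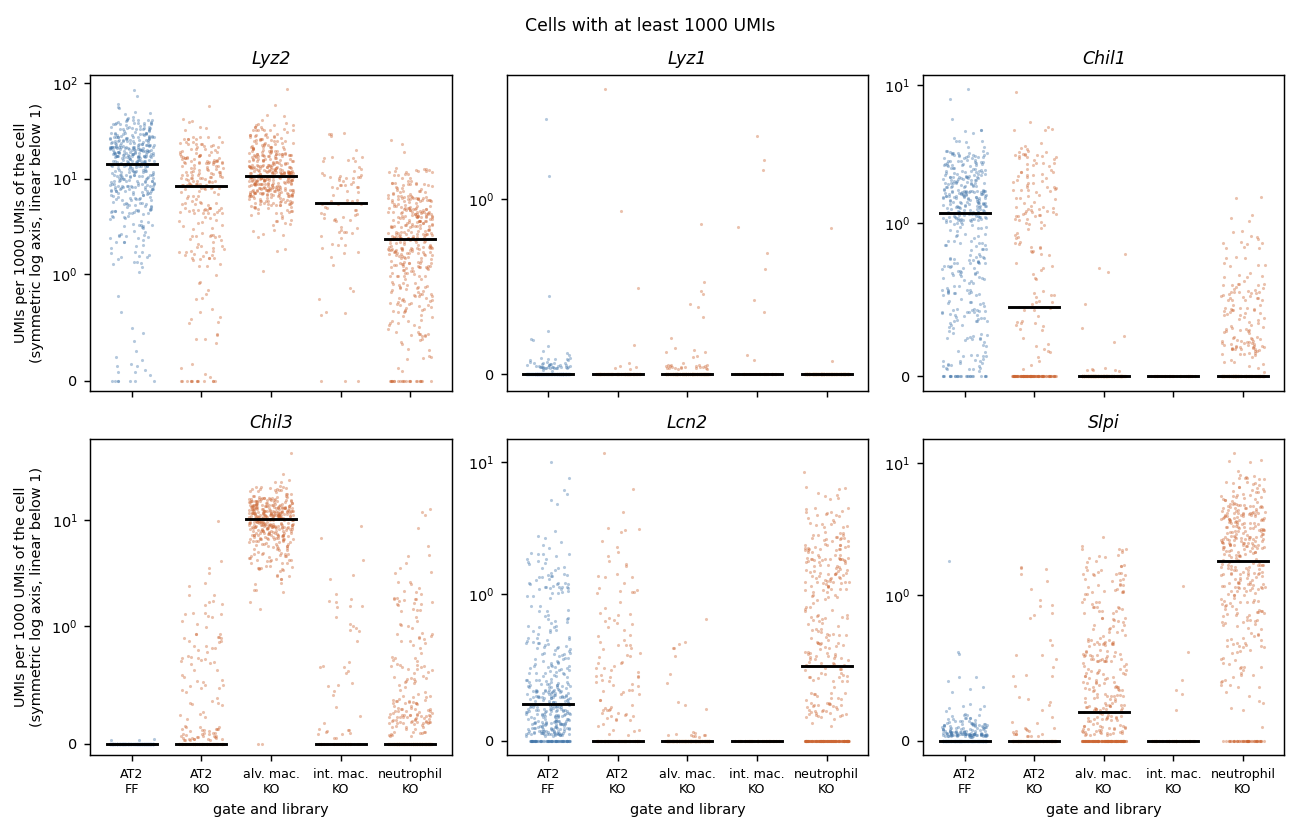
UMIs of a gene per 1000 UMIs of a cell (vertical axis, symmetric log scale that is linear below 1), for every cell with at least 1000 UMIs in the AT2 gate of Cebpa FF (blue) and in the AT2, alveolar macrophage, interstitial macrophage and neutrophil gates of Cebpa KO (orange), with black bars at the medians. Lyz2 spreads over all gates, Chil3 is high in nearly all alveolar macrophages (thinned median 10 per 1000), and Lyz1 lies near 0 except in a few cells.

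In macrophages and monocytes the lysozyme was again Lyz2. In Cebpa KO, classical monocytes had 29329 CPM (29040 to 29621), alveolar macrophages 14528 (14411 to 14645), interstitial macrophages 9392 (9114 to 9676) and nonclassical monocytes 9081 (8913 to 9252). The level in AT2 cells was 1.02-fold (1 to 1.03) that in alveolar macrophages, and classical monocytes had 2.02-fold (1.99 to 2.04) the alveolar macrophage level. The lower ends of this order, interstitial macrophages and nonclassical monocytes, had overlapping intervals. In Cebpa FF, Lyz2 stood at 25909 CPM in 8 classical monocytes and 13836 (13039 to 14669) in 20 interstitial macrophages. In interstitial macrophages the log2 ratio was -0.56 (-0.65 to -0.46), and it was past 2-fold lower, at -1.05, with the mean of CPM over cells.

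Chil3 (Ym1), a macrophage and neutrophil lectin, had its highest level in the alveolar macrophage gate of both libraries. In Cebpa KO it stood at 12236 CPM (12129 to 12344) and 427 of 432 alveolar macrophages had a UMI. This was 10.1-fold (9.65 to 10.7) above classical monocytes (1206 CPM). Interstitial macrophages followed with 582 (254 without the top cell) and nonclassical monocytes with 571. In Cebpa FF the 3 alveolar macrophages held 16 UMIs in 2090, which is 7656 CPM (4376 to 12432), and 8 classical monocytes held 133 UMIs, 90 and 39 of them in 2 cells. Classical monocytes thus held 65.5% of the Chil3 UMIs of that library and alveolar macrophages 7.88%. The Cebpa FF cells are too few for a ratio. In interstitial macrophages Chil3 had 0 UMIs in Cebpa FF and 268 in Cebpa KO, at least 15.8-fold higher, but 157 of the 268 lay in 1 cell, and without it the bound was 2.76 on the log2 scale. It was 1 of 2 tested members past 2-fold there, beside 18.8% of 1648 genes, 16.5% higher and 2.31% lower. Reads of Chil3 may be confused with those of Chil4, whose transcript matched it over 94.3% of aligned columns, and 89.4% over the last 300 bases.

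Interstitial macrophages of Cebpa KO also held Lyz1, at 82.6 CPM (58.4 to 113), 8.25-fold (5.16 to 13.1) the level of alveolar macrophages in the same library. The 38 UMIs lay in 10 of 90 cells, with 11, 10 and 6 in the top 3, and the Cebpa FF cells had 0 of 81239 UMIs, which allows up to 36.9 CPM. The top cell had 104 Lyz2 UMIs, 9 of C1qa and 0 of Sftpc. Slpi was moderate in Cebpa KO alveolar macrophages, at 485 CPM (464 to 507) in 260 of 432 cells, and 202 CPM in classical monocytes. The alveolar macrophage level of Slpi was 40.3-fold (36 to 45.1) that of endothelial cells. Other whey acidic protein genes were seen in alveolar macrophages, Wfdc21 at 589 CPM and Wfdc17 at 115.

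Neutrophils of Cebpa KO held Lyz2, Slpi, Lcn2 and Chil1, while Camp and Ltf were close to 0. Lyz2 stood at 3640 CPM (3551 to 3731), Slpi at 2442 (2369 to 2517), Lcn2 at 1064 (1016 to 1113) and Chil1 at 174 (155 to 195). Slpi was the widest of them after Lyz2, with a UMI in 397 of 475 cells (83.6%), against 437 cells for Lyz2 and 291 (61.3%) for Lcn2. Endothelial cells of this library, with a median of 4282 UMIs against 2482, had a UMI of Slpi in 5.17% and of Lcn2 in 3.22% of cells. Slpi was 5.04-fold (4.78 to 5.32) the alveolar macrophage level and 44-fold (35.8 to 54.5) the AT2 level. Lcn2 was 1.66-fold (1.54 to 1.79) the AT2 level, Chil1 was 8.06-fold (7.15 to 9.11) higher in AT2 cells, and Lyz2 was 3.99-fold (3.89 to 4.10) higher in alveolar macrophages. The 3 Cebpa FF neutrophils held 34 Lyz2, 36 Slpi, 7 Lcn2 and 3 Chil1 UMIs, with all of Slpi, Lcn2 and Chil1 in 1 cell.

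Ngp, Camp and Ltf, products of granule formation in the bone marrow, were low in these neutrophils. Ngp had 75 UMIs (43.2 CPM, 34 to 54.1) in 31 of 475 cells, and 30 of them lay in 1 cell that also held 1 Camp UMI, 349 of Lyz2 and 1171 of S100a8. Camp had 4 UMIs (2.3 CPM, 0.627 to 5.89) in 4 cells and Ltf had 3 (1.73 CPM, 0.356 to 5.05) in 2. Ngp was still at least 441-fold higher than in Cebpa KO endothelial cells, which had 0 UMIs. Of the 20 listed granule genes 12 had at least 50 UMIs in neutrophils, led by the calprotectin genes S100a9 (66173 CPM) and S100a8 (59721). Then came the gelatinase Mmp9 (1155), the peptidoglycan recognition protein Pglyrp1 (1097), Lcn2 and the oxidase subunit Cyba (1022). Of those named, S100a9, S100a8 and Mmp9 are markers of the gate, so their presence there is partly set by it. The azurophil granule enzymes Mpo, Elane, Prtn3 and Ctsg were not among the 12, each with fewer than 50 UMIs. The whey acidic protein genes Wfdc17 (2580 CPM) and Wfdc21 (1501) accompanied Slpi.

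Chil3 was uneven in neutrophils, at 456 CPM (425 to 489) with 299 of 793 UMIs in 1 cell. That cell had 35363 UMIs, 536 of S100a8 and 24 of Ear2, an alveolar macrophage marker, and without it the level was 290 CPM. The pooled level was 3.48-fold (3.22 to 3.76) that of Cebpa KO endothelial cells. In 20 neutrophils rich in the chemokines Ccl3 or Ccl4 (at least 2 UMIs per 1000, a split made after seeing the data), Chil3 stood at 150 CPM (79.9 to 257) and Lyz2 at 2608 (2279 to 2971), against 473 (440 to 507) and 3694 (3602 to 3788) in the other 455. The cell with 299 Chil3 UMIs is among these 455, which held 780, and the sets were not compared without it. Slpi (2643 and 2432 CPM) and Lcn2 (1050 and 1064) had overlapping intervals in the same sets.

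Endothelial cells, which should lack these secreted products, were taken as the background of each library, and it differed between them. In Cebpa KO 1 endothelial cell held 91 of the 4023 Chil3 UMIs and 1 held 185 of the 8852 Lyz2 UMIs. Whether such cells carry RNA of a second cell was not tested. From Cebpa FF to Cebpa KO, endothelial Lyz2 went from 93.7 CPM (90.7 to 96.9) to 289 (283 to 295), Chil3 from 0.482 (0.286 to 0.761) to 131 (127 to 135) and Slpi from 1.07 (0.765 to 1.46) to 12 (10.8 to 13.3). Chil1 went the other way, from 9.18 (8.24 to 10.2) to 4.4 (3.69 to 5.21), and Wfdc2 stayed near 26.1 (24.5 to 27.8) and 24 (22.3 to 25.8). Of 7 members tested in endothelial cells 4 were more than 2-fold higher in Cebpa KO and 1 lower, beside 6.2% and 0.883% of 13475 genes. Of these 4, Lyz1, Chil3 and Slpi had 12, 18 and 40 UMIs in Cebpa FF and reached the count minimum only through Cebpa KO. The count of 4 is thus partly set by that minimum. Among Cebpa KO endothelial cells 36.8% had a Chil3 UMI, or 14% after thinning to 1000 UMIs, against 41.4% and 23.5% of AT2 cells. The endothelial level limits what can be read in other gates, although median depth in Cebpa KO was 4282 UMIs in endothelial and 1510 in AT2 cells. Chil3 in Cebpa KO AT2 cells (133 CPM, 116 to 152) was 1.01-fold (0.883 to 1.16) the endothelial level. Its log2 ratio to Cebpa FF AT2 cells, with 3 UMIs, was nevertheless 8.66 (7.09 to 10.95).

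The mix of background RNA also differed between the libraries. In Cebpa KO there were 45.4 Chil3 UMIs per 100 of Lyz2 in endothelial cells, 48 in T or NK cells, 32.4 in mesenchymal cells and 33.9 in erythroid cells, below the 84.2 of alveolar macrophages and above the 12.5 of neutrophils and 4.11 of classical monocytes. In B cells it was 34.5, but 1 B cell held 404 of 718 Lyz2 and 67 of 248 Chil3 UMIs. In Cebpa FF endothelial cells there were 0.514 Chil3 and 897 Sftpc UMIs per 100 of Lyz2, against 1173 of Sftpc in AT2 cells, whereas Cebpa KO endothelial cells had 98.8 of Sftpc. Marker lists in endothelial cells moved with this: AT2 markers went from 1287 to 622 CPM with 11 of 11 found in both, alveolar macrophage markers from 5.17 (9 of 11 found, Fabp1 and Siglecf at 0) to 67.8 (11 of 11), and neutrophil markers from 7.36 to 366 with 12 of 12 in both. By comparison, Lyz2 in Cebpa FF was 174-fold (168 to 180) higher in AT2 than in endothelial cells, Chil1 156-fold (140 to 174), Wfdc2 117-fold (110 to 125), Lcn2 100-fold (86.4 to 117) and Slpi 37.4-fold (26.9 to 53.2). In Cebpa KO the fold of Slpi was 4.62 (3.64 to 5.81). With the endothelial level taken off, the AT2 log2 ratio of Slpi between the libraries was 0.16.

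**Figure D4:**
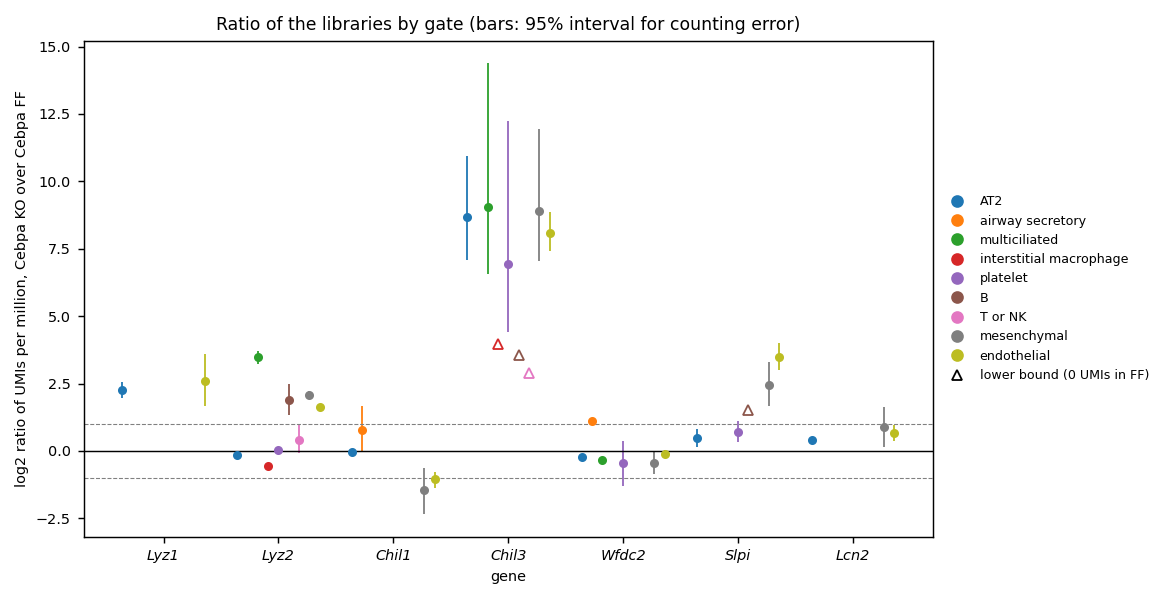
Log2 ratio of CPM, Cebpa KO over Cebpa FF (vertical axis), for Lyz1, Lyz2, Chil1, Chil3, Wfdc2, Slpi and Lcn2. Each gene is drawn in the gates (colors) where it had at least 50 summed UMIs. Bars are 95% intervals for counting error, open triangles are lower bounds and dashed lines lie at 2-fold. Chil3 lies far above 0 in every gate where it is drawn, endothelial cells included, while Lyz2, Chil1 and Wfdc2 lie near 0 in AT2 cells.

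Outside these types, cells of the platelet gate held Lyz2 at 2785 CPM (2647 to 2929) in 400 Cebpa FF cells and 2824 (2662 to 2993) in 208 Cebpa KO cells, a log2 ratio of 0.02 (-0.09 to 0.13). This was 29.7-fold (28 to 31.6) the endothelial level in Cebpa FF and 9.78-fold (9.19 to 10.4) in Cebpa KO, and 91.8% and 92.3% of the cells had a UMI, against 37% and 57.8% of endothelial cells. Median depth was 1055 and 1555 UMIs in platelets and 4903 and 4282 in endothelial cells. There were 86.6 Sftpc UMIs per 100 of Lyz2 in Cebpa FF platelets, against 897 in endothelial cells of that library. Slpi stood at 182 (148 to 221) and 299 (248 to 357) CPM in the same cells, with no more than 5 UMIs in any cell. Of 4 members tested in this gate 1 was past 2-fold, Chil3 (1.84 and 222 CPM), beside 3.8% of 2000 genes, 2.15% higher and 1.65% lower. In the other reference gates Chil3 was again past 2-fold, with Lyz2 and Slpi in B and mesenchymal cells, and Chil1 was lower in mesenchymal cells (8.69 and 3.21 CPM). Members tested were 3 in B, 2 in T or NK and 6 in mesenchymal cells. Chil3, with 1 UMI in Cebpa FF platelets, 0 in B and T or NK and 2 in mesenchymal cells, reached the minimum only through Cebpa KO. So did Slpi (0 in B and 19 in mesenchymal cells) and, in B cells, Lyz2 (28). Chil3 in B and T or NK cells and Slpi in B cells thus have lower bounds only. In B cells 46 of the 60 Slpi UMIs lay in 1 cell, and Lyz2 stood at 80.9 and 162 CPM without the top cell of each library. The shares of genes past 2-fold were 7.71% of 5420 in B cells (6.9% higher, 0.812% lower), 9.27% of 6442 in T or NK cells (7.61% higher, 1.66% lower) and 4.06% of 11737 in mesenchymal cells (2.66% higher, 1.4% lower). In cells that passed no gate 7 members were tested, and Lyz1, Lyz2 and Chil3 were more than 2-fold higher and Lcn2 lower (59.4 and 27.1 CPM), beside 17.2% of 12430 genes, 10.7% higher and 6.6% lower. Lyz1 and Chil3, with 2 and 26 UMIs in these Cebpa FF cells, reached the minimum only through Cebpa KO.

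Over the 23 combinations of gate and library with at least 20 cells, the gene most like each member in log2(CPM + 10) was sought among 5294 genes reaching 100 CPM. For Lyz2 it was Cebpa (Pearson's r 0.86), then Pfkfb4 (0.83) and Bach1 (0.79). For Chil1 it was Slco4c1 (0.95), S100g (0.91) and Bex2 (0.90), for Lcn2 it was Chil1 (0.90), Arg2 (0.89) and Slco4c1 (0.88), and for Wfdc2 it was Myo5c (0.99), Irx5 (0.98) and Irx3 (0.98). Those most like Chil3 were Ear2 (0.91), Ms4a8a (0.87) and Ccl6 (0.85), and those most like Slpi were Clec4d (0.88), Msrb1 (0.86) and Pfkfb4 (0.85). Lyz1, Ltf, Camp and Ngp did not reach 100 CPM in any of these points, and the r of Ngp with Asprv1, which rounds to 1, rests on the neutrophil point. Ear2 is a marker of the alveolar macrophage gate and Clec4d of the neutrophil gate, so their levels at those points are partly set by the gates. The points also share libraries and background, so the values are descriptions.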

How the data were processed

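The authors deposited raw UMI counts per gene and cell, 1 matrix per genotype, made with Cell Ranger on mm10. The processing notes give version 6.1.1 and the matrix headers 5.0.0. The counts were not normalized, and replicate mice cannot be told apart in the barcodes. Of 25094 barcodes, 24725 were kept as cells, the limits being a minimum of 200 detected genes and a mitochondrial share of 20%. Cells were assigned to 1 of 16 gates by the number of markers found and their UMIs per 1000, with limits set after the marker distributions had been seen. Cells passing several gates were left out in place of a doublet caller, and no caller was run. The 10 genes and the gene lists were chosen with earlier results of these data known.

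Counts were summed per gate and library. With 1 library per genotype there was no test: ratios have exact conditional (Clopper-Pearson) intervals, levels exact Poisson intervals, and a count of 0 was raised to 3 for bounds. PCR, capture and mouse variation are not covered. A gene was tested for 2-fold with at least 50 summed UMIs. A gene near 0 in 1 library can reach this only through the other, so its call is partly set by the minimum. All members and at most 6 genes per pathway list and gate were named, by level, and for each member the 3 genes of highest Pearson correlation across gates. The steps used scipy 1.17.1, numpy 2.4.6, matplotlib 3.10.9 and pandas 2.3.3 under Python 3.11.15 and were checked on simulated counts. Alternatives changed the filters, gates, weights, total and count minimum, and 2 (without the top cell, cells thinned to 1000 UMIs) were chosen after seeing the data. Promoters are from RefSeq (GRCm38.p6) and gene positions from GENCODE vM21 (GRCm38), the build of mm10, and all 10 genes matched in both.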

Additional observations from a re-analysis of the deposited data

Results flagged for a closer look

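Cells that passed no gate were assigned to no cell type, and had medians of 1701 UMIs in Cebpa FF and 1351 in Cebpa KO. Whether they include cells of the types compared that showed too few markers was not tested. Among them 3 genes were higher in Cebpa KO than in Cebpa FF by more than 2-fold over the whole interval. The log2 ratio was 4.67 (2.76 to 7.74) for Lyz1, with 2 UMIs in Cebpa FF and 70 in Cebpa KO, 3.69 (3.61 to 3.77) for Lyz2 (213 and 2751 CPM) and 7.88 (7.33 to 8.50) for Chil3 (4.24 and 1000 CPM). Of the 12430 genes tested in these cells 17.2% were past 2-fold.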

How the results depend on the processing

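Of 170 ratios of the members recomputed under alternatives, 112 stayed within the interval of the value reported, and 13 of 19 member ratios kept their direction in every alternative run. Those that did not were Lyz1, Lyz2, Lcn2, Chil1 and Slpi in AT2 cells and Wfdc2 in endothelial cells. Lyz1 in AT2 cells (2.26) turned to -0.62 without the top cell and -0.32 with cells thinned to 1000 UMIs. With the mean of CPM over cells, AT2 values were -0.68 for Lyz2, -0.43 for Lcn2 and 1.65 for Slpi, and the cause was not tested. The count of members past 2-fold in AT2 cells was 2, and 1 without the top cell. It was also 1 with the endothelial level taken off, because Chil3 then gave no ratio. Its Cebpa FF level in AT2 cells (0.329 CPM) lay under the endothelial level (0.482 CPM). In Cebpa KO the AT2 level (133 CPM) was close to the endothelial level (131 CPM). The lower count thus shows neither that its difference was lost nor that it remained above the endothelial level. With the mean of CPM or thinned cells the count was again 2, but Slpi (1.65 and 1.52) stood in place of Lyz1. In airway secretory cells it was 2, and 1 with the mean of CPM, with secretoglobins, hemoglobins and mitochondrial UMIs out of the total, or with thinned cells. Wfdc2 there was at 0.62 with no exclusion of cells in several gates. In interstitial macrophages the count was 1 (Chil3), and 2 with that exclusion dropped or with genes of 10 or more summed counts. With the mean of CPM over cells it was 1 (Lyz2, lower at -1.05), and with the endothelial level taken off it was 0. In both of these settings Chil3, with 0 UMIs in Cebpa FF, gave no ratio and could not be counted. These counts therefore do not show the Chil3 difference lost. The endothelial count was 5 in every setting run, but its members changed. With no exclusion of cells in several gates, the mean of CPM or thinned cells, Lcn2 (1.32, 1.33 and 1.17) stood in place of Chil1. Chil1 was at -0.70, -0.92 and -0.93 there, so no member was past 2-fold lower. From cells with at least 3000 UMIs to thinned cells, endothelial Lyz2 went from 1.02 to 2.36 and Slpi from 2.73 to 5.37. The log2 ratio of the neutrophil share was 7.10, and no alternative left its interval. The stricter cell filter, the 3000 UMI minimum and 1 more marker left under 10 airway cells, so they gave no value, and neutrophils and alveolar macrophages gave no ratio in any setting. No paired analysis was possible because each genotype has 1 library. Low counts limit what can be said of Camp, Ngp and Ltf, with 4, 1 and 31 UMIs in all of Cebpa FF, where the neutrophil gate held 3 cells.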

Other observations

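In Cebpa FF most ungated Slpi lay in a small set of cells that held at least 2 UMIs each of Msln and Upk3b, genes known from the mesothelium that covers the lung. These 14 cells held 459 of the 480 Slpi UMIs outside the gates and 42.7% of those of the whole library, at 4342 CPM (3954 to 4758). The level rested on few cells, with 240, 86 and 69 of the 459 UMIs in the top cells and UMIs in 8 of 14. In Cebpa KO 8 such cells, with a median of 1984 UMIs against 7779, held 11 Slpi UMIs, at 290 CPM (145 to 519). The same Cebpa FF cells had 56.8 CPM of Lyz2 and 9.46 of Lcn2, the latter from 1 UMI. This set was chosen after its values were seen.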
